A study of Mus musculus with 12 samples.

Results

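Slc13a4, Slc22a6, Slc22a8, Slc47a1, Slc6a13, Ranbp3l and Ptgds are genes that cells of the meninges and related barrier layers are known to express, and their RNA was measured in whole trigeminal ganglia of adult mice. They are 7 of the 55416 genes in the deposited count tables, and all 7 were among the 16637 genes with enough reads to test. They were chosen for their barrier role, for their difference between the groups and for their correlation over these libraries. Those values are therefore given as a description, with no test. Trigeminal ganglia contain neurons that sense touch, temperature and pain in the head, together with glia, vessels and connective tissue sheaths.

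The study compared 6 ganglion libraries named iKO with 6 control libraries, taken 1 month after injection, to find genes that depend on the transcription factor gene Prdm12 in adult ganglia. All animals were adult C57Bl6 mice. Every iKO animal had the genotype Rosa26Cre ERT2; Fl/Fl and was injected with tamoxifen (iKO 1 to 3 female, iKO 4 to 6 male). Rosa26Cre ERT2 is a Cre recombinase that tamoxifen activates and that the Rosa26 locus drives in most cell types, so Cre is not limited to neurons. The controls were mixed. Control 1 was a female with Rosa26Cre ERT2; Fl/+, control 2 a female and control 3 a male with +/+; Fl/+, and control 4 a male with Rosa26Cre ERT2; +/+, all given tamoxifen. Controls 5 and 6 were males with Rosa26Cre ERT2; Fl/Fl that received corn oil. Injection, genotype and replicate set therefore cannot be told apart within the controls. The labels do not say whether a library holds 1 animal or several.

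The meninges wrap the brain and the roots of the cranial nerves, and their arachnoid layer contains a sheet of cells joined by tight junctions that separates cerebrospinal fluid from the outer, leaky dura. These cells carry transporters that clear organic anions, drugs and neurotransmitters from the fluid, while nearby leptomeningeal fibroblasts make and secrete the prostaglandin D synthase encoded by Ptgds, which is also a lipid carrier protein of cerebrospinal fluid. The root of the trigeminal ganglion passes through a pocket of these membranes, and the perineurium forms a comparable barrier around its nerve branches. In a bulk sample such as these, fewer cells of a type and less RNA per cell cannot be told apart.

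Libraries held 13207526 to 24178970 counts, and values are given as CPM, counts scaled to a common library size, after TMM scaling, whose factors ran from 0.969 to 1.02. A count of 3, taken as the floor, corresponded to 0.124 to 0.227 CPM. Prdm12 itself ranged from 56.8 to 133 CPM in controls and from 13.2 to 19.1 CPM in iKO, with no overlap, a log2 difference of -2.64. Summed RNA of 10 sensory neuron genes was 7387 to 9316 CPM in controls and 7171 to 9498 CPM in iKO, so the libraries held the labelled tissue in both groups.

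The upstream sequences of 6 of the 7 genes were found in a RefSeq promoter table of build GRCm38.p6; Slc47a1 was not matched. The 250 bases before the start are shown for 4 genes, because 3 share a short sequence and the fourth, Slc13a4, lacks it although its RNA followed that of Slc22a6 most closely. They are Slc22a6 (chr19:8617746-8617995, plus strand), Slc22a8 (chr19:8592932-8593181, plus strand), Ranbp3l (chr15:8967699-8967948, plus strand) and Slc13a4 (chr6:35308127-35308376, minus strand). Each is written 5′ to 3′ on the gene's own strand, and capitals mark GTTAAT, a half-site named for the HNF1 factors of kidney and liver.
Slc22a6: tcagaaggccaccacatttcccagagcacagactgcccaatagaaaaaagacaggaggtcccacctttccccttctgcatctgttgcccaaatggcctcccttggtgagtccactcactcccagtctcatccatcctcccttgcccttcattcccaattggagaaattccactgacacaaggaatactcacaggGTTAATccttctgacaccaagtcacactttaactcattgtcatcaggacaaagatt
Slc22a8: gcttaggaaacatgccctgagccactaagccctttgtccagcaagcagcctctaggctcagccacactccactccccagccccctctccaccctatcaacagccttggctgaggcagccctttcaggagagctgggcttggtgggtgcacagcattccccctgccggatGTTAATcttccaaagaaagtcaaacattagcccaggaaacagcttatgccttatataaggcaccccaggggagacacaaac
Ranbp3l: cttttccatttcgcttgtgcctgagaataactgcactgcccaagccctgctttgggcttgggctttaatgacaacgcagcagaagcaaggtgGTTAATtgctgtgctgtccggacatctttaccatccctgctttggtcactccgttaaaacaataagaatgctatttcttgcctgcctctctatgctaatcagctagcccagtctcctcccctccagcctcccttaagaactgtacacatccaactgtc
Slc13a4: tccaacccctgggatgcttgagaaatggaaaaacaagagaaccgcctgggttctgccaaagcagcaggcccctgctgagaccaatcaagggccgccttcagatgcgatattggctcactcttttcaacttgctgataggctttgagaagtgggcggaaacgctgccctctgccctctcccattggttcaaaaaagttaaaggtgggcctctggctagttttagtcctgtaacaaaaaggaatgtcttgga

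GTTAAT began at position -56 in Slc22a6, -81 in Slc22a8 and -158 in Ranbp3l, counted back from the start. It was searched on both strands of windows of 300 bases (250 before to 50 after the start) and was present in 3 of the 6 matched genes and in 7.1% of 32851 promoters of that length. The core GGAATG of TEAD sites was in Slc13a4, Slc22a6, Slc22a8 and Slc6a13, and in 14.7% of promoters. An AP-1 sequence, TGACTCA, was in Ptgds at -35 and in 5.2% of promoters. CAGCTG was in Slc22a8 and Ptgds (16.3% of promoters), CCAAT in Slc13a4 and Slc22a6 (37.4%), and GGGCGG in Slc13a4 and Slc6a13 (35.7%). TATAAA (13.6%), TGTTTAC (3.65%), AGGTCA (16.3%) and CACGTG (7.15%) were in none of the 6 windows. The motifs were picked after the sequences had been seen, and a match is a description of letters only. Slc22a8 and Slc22a6 lie next to each other on chromosome 19 on the same strand, 6160 bases apart in the RefSeq annotation, with the predicted gene Gm36394 between them.

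Slc22a6 and Slc22a8 encode organic anion transporters, best known for drug and metabolite secretion in the kidney and for efflux from cerebrospinal fluid. Slc22a6 measured 6.47, 13.2 and 14.8 CPM in controls (lowest, median, highest) and 3.34, 5.96 and 7.51 CPM in iKO. The 2 groups overlapped because iKO 1 and iKO 3 lay above control 4, the lowest control. The means were 11.9 ± 3.23 and 5.73 ± 1.49 CPM (SD, n = 6 each), a log2 difference of -1.10 ± 0.21 (SE). Slc22a8 measured 10.3, 15.1 and 21.3 CPM in controls and 4.21, 7.42 and 9.11 CPM in iKO. It was the only one of the 7 genes whose groups did not overlap; over all genes tested, 1.2% had groups that did not overlap in either direction and 0.523% had every iKO library below every control. Its means were 15.4 ± 4.22 and 7.24 ± 1.72 CPM, a log2 difference of -1.12 ± 0.21.

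Slc47a1 encodes a multidrug and toxin extrusion protein that exports organic cations in exchange for protons. It was the most variable of the 7, at 12.8, 31.2 and 46.2 CPM in controls and 6.97, 17.2 and 31.9 CPM in iKO. Control 4 was again the lowest control, but the lowest iKO library was iKO 4, and iKO 3 lay above 3 controls. The coefficient of variation was 37% in controls and 48.7% in iKO, against 20.9% to 29.3% in controls and 19.4% to 31.8% in iKO for the other 6 genes. Its means were 31.3 ± 11.6 and 18.2 ± 8.88 CPM, a log2 difference of -0.82 ± 0.34.

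Slc13a4 encodes a sodium-coupled sulfate transporter, known from placenta and from the meninges and choroid plexus. It measured 22.8, 38.5 and 40.7 CPM in controls and 11.6, 18.1 and 24.3 CPM in iKO. In 4 controls it lay within a narrow band, 38.4 to 40.7 CPM, and only controls 3 and 4 were lower, at 28.5 and 22.8 CPM. One iKO library, iKO 3, lay above control 4. The means were 34.7 ± 7.24 and 18.7 ± 4.42 CPM, a log2 difference of -0.95 ± 0.15.

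Slc6a13 encodes a GABA and taurine transporter of the meninges, liver and kidney. It measured 17.7, 31.4 and 40.6 CPM in controls and 10.3, 19 and 24.8 CPM in iKO. Here 4 of the 6 iKO libraries lay above control 4, although none reached the next control, at 26.8 CPM. Its difference was the smallest of the 7 (means of 30.1 ± 7.54 and 18.9 ± 5.3 CPM, log2 difference -0.74 ± 0.18).

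Ptgds, the prostaglandin D synthase gene, was by far the most abundant. It measured 737, 1458 and 1757 CPM in controls and 433, 714 and 821 CPM in iKO. Among iKO libraries 5 of 6 lay close together, at 695 to 821 CPM, and iKO 6 stood below them at 433 CPM; iKO 4 and iKO 5 lay above control 4. The means were 1345 ± 394 and 689 ± 134 CPM, a log2 difference of -0.98 ± 0.20. The other 6 genes summed to 76.9 to 159 CPM in controls and 49.0 to 103 CPM in iKO.

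Ranbp3l encodes a Ran-binding protein that carries bone morphogenetic protein signalling Smads out of the nucleus. It measured 6.77, 12.3 and 14.7 CPM in controls and 2.87, 5.51 and 7.27 CPM in iKO. Only iKO 2 lay above control 4, and the remaining iKO libraries were below every control. Its difference was the largest of the 7 (means of 11.5 ± 3.01 and 5.17 ± 1.65 CPM, log2 difference -1.21 ± 0.23).

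**Figure D1:**
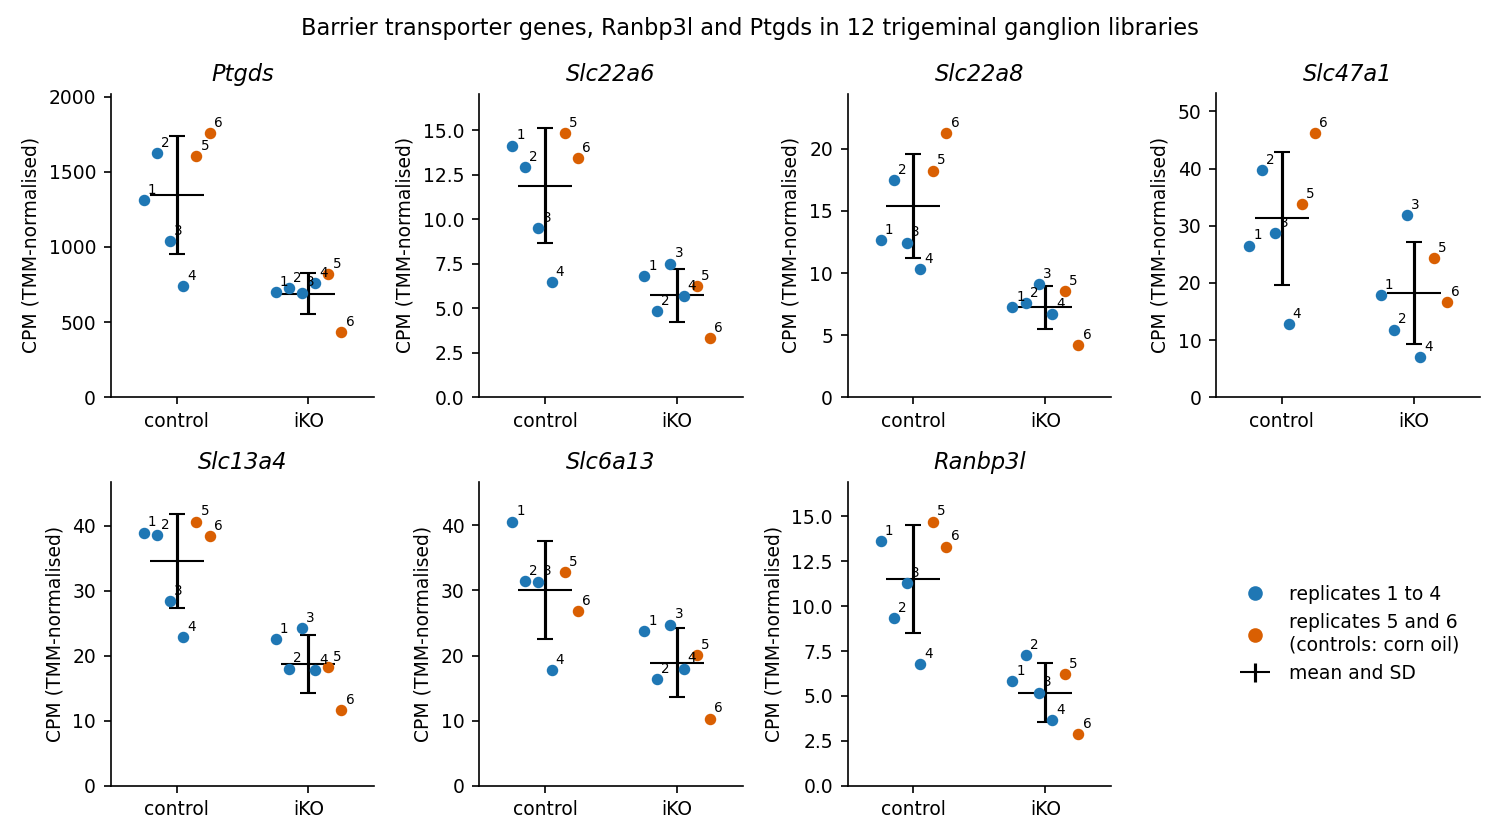
CPM of each of the 7 genes (y axis, linear from 0) in the 6 control and 6 iKO libraries (x axis), numbered by replicate, with the mean and SD of each group; colour separates replicates 1 to 4 from replicates 5 and 6. Control 4 is the lowest control in all 7 panels, and Slc22a8 is the only gene whose groups do not overlap.

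Per kilobase of exon, which allows genes to be compared with each other, the mean control levels of these genes spanned a wide range. Ptgds stood at 816 ± 239 CPM per kb, and Slc6a13 (10.4 ± 2.60), Slc47a1 (9.25 ± 3.42) and Slc13a4 (7.65 ± 1.60) came next, each differing from its neighbour by less than the larger of the 2 SDs. Slc22a8 (3.94 ± 1.08) and Slc22a6 (2.98 ± 0.81) also differed by less than the larger SD, and Ranbp3l was lowest at 1.68 ± 0.44. In iKO the order was the same, from 418 ± 81.1 CPM per kb for Ptgds to 0.75 ± 0.24 for Ranbp3l. Mean iKO levels were between 44.9% (Ranbp3l) and 62.7% (Slc6a13) of the control mean.

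The same libraries were at the low end for most of the genes. Control 4 (Rosa26Cre ERT2 with no floxed allele, tamoxifen) was the lowest control for all 7, and iKO 6 was the lowest iKO library for 6 of the 7. Over all genes tested, control 4 was the lowest control in 16.9%, iKO 6 the lowest iKO library in 11.1% and both at once in 2.25%. Compared with the other 5 controls alone, all 6 iKO libraries were lower for 6 of the 7 genes, and 5 of 6 for Slc47a1. Over all genes, 0.974% had every iKO library below these 5 controls. Control 4 was singled out after its values were seen, and leaving out the lowest control can only widen the separation. The 7 genes were also chosen partly on this difference, so these counts are a description only. Without control 4 the log2 differences ran from -1.30 (Ranbp3l) to -0.83 (Slc6a13), and without control 4 and iKO 6 together from -1.15 to -0.69 for the same genes.

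**Figure D2:**
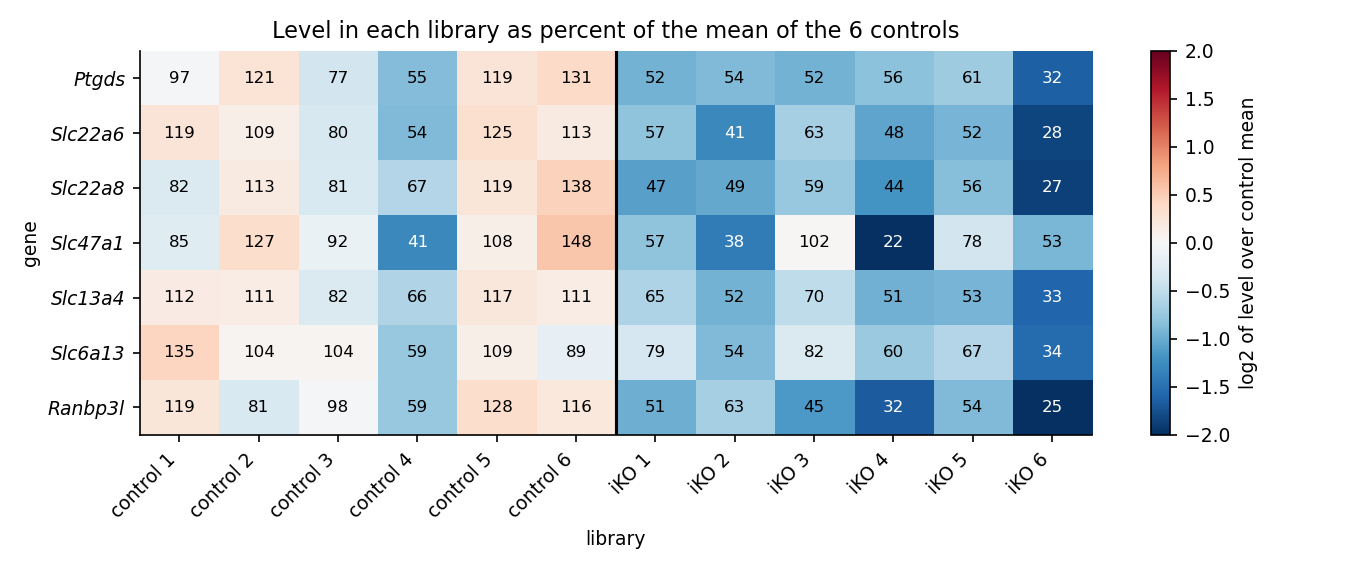
Level of each gene (rows) in each library (columns) as a percent of the mean of the 6 controls, printed in each cell, with colour for the log2 of that ratio. In iKO 6 the 7 genes stand at 25% to 53.1% of the control mean, and in control 4 at 41% to 66.9%.

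The difference, for which the genes were partly chosen, was below 0 in both replicate sets and both sexes. These are overlapping parts of the same 12 libraries, so the values are a description only. In replicates 1 to 4, where all animals had tamoxifen and controls differed in genotype, the log2 ratio of mean CPM ran from -0.90 (Ranbp3l) to -0.55 (Slc6a13). In replicates 5 and 6, where all 4 animals were Rosa26Cre ERT2; Fl/Fl males and differed in injection, it ran from -1.63 (Slc22a8) to -0.97 (Slc47a1 and Slc6a13). In females it ran from -1.08 (Slc22a6) to -0.69 (Slc47a1) and in males from -1.44 (Ranbp3l) to -0.75 (Slc6a13). When the fit held only tamoxifen-injected animals, the log2 differences were -0.99 for Ranbp3l, -0.87 for Slc22a6, -0.86 for Slc22a8, -0.77 for Slc13a4, -0.73 for Ptgds, -0.67 for Slc6a13 and -0.52 for Slc47a1. The value of Slc47a1 was thus more than 1.5 times closer to 0 on the log2 scale than with all 12 libraries.

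Whether the difference itself changed between the replicate sets was tested with edgeR's quasi-likelihood test, adjusted over all genes. The change of the log2 difference (replicates 5 and 6 minus replicates 1 to 4) was -0.76 (95% interval -1.50 to -0.01) for Slc22a8, -0.68 (-1.50 to 0.14) for Slc22a6, -0.67 (-1.45 to 0.11) for Ptgds and -0.67 (-1.21 to -0.13) for Slc13a4. It was -0.57 (-1.51 to 0.38) for Ranbp3l, -0.33 (-1.21 to 0.55) for Slc6a13 and -0.02 (-1.30 to 1.26) for Slc47a1. None of the 7 passed in edgeR (adjusted p = 1 for each after rounding) or DESeq2, and 2 of the 7, Slc13a4 and Slc22a8, had an unadjusted p under 0.05. Over all 16637 genes edgeR called 0 (0%) and DESeq2 5, with 568 genes at an unadjusted p under 0.05, and edgeR called 15 without iKO 6. With no filter on low counts, Ptgds (edgeR adjusted p = 1.985e-06) and Slc13a4 (edgeR adjusted p = 0.00604) passed, in a fit that called 578 genes. The change depended on iKO 5 and iKO 6, the 2 iKO libraries of that set. Without iKO 6 it was -0.39 for Slc13a4, -0.35 for Slc22a8, -0.31 for Slc22a6, -0.29 for Ptgds and -0.13 for Ranbp3l. Without iKO 5 these 5 genes ran from -1.38 (Slc22a8) to -1.05 (Slc13a4). For Slc6a13 the change was 0.059 without iKO 6, and for Slc47a1 it ran from -0.34 to 0.33 when 1 library was left out, so neither had a stable sign.

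Corn oil controls were also set against tamoxifen controls. The log2 differences were adjusted for sex in a fit of all 12 libraries, so iKO values entered them too. They are therefore not the log2 ratios of the mean levels shown. The level of Ptgds was 1681 ± 108 CPM with corn oil (n = 2) and 1177 ± 378 CPM with tamoxifen (n = 4), a log2 difference of 0.72 (0.12 to 1.33, edgeR adjusted p = 0.548). Slc22a8 measured 19.8 ± 2.13 and 13.2 ± 3.03 CPM, a log2 difference of 0.77 (0.21 to 1.32, edgeR adjusted p = 0.531). Slc22a8 was the only one of the 7 genes for which the 2 corn oil libraries were the 2 highest controls. The log2 difference was 1.11 for Slc47a1, 0.71 for Ranbp3l, 0.69 for Slc22a6, 0.56 for Slc13a4 and 0.22 for Slc6a13, and none passed in edgeR (adjusted p of 0.531 to 0.892) or DESeq2, while 6 of the 7, all but Slc6a13, had an unadjusted p under 0.05. Over all genes edgeR called 0 (0%) and DESeq2 3, with 1312 at an unadjusted p under 0.05, and edgeR called 120 without control 5. For Slc6a13 the mean levels themselves were 29.8 CPM with corn oil and 30.3 CPM with tamoxifen. Without control 4 the log2 difference was 0.47 for Ptgds, 0.46 for Slc22a6 and -0.048 for Slc6a13, and without control 3 it was 1.71 for Slc47a1. Without iKO 4 it was 0.92 for Ptgds. With no filter on low counts 6 of the 7 genes passed here, all but Slc6a13, in a fit that called 1136 genes.

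In the fit over both groups the log2 difference of males from females was below 0 for each of the 7 genes, and none passed the test. The fit had no term for injection or replicate set, and all animals of replicates 5 and 6 were males. Sex is therefore partly mixed with both. In the controls alone, where the males include both corn oil animals, 2 genes had mean levels that were not lower in males. They were Slc22a8 (15.6 CPM in males, 15.1 CPM in females) and Ranbp3l (11.5 CPM in both). The log2 difference (male minus female) was -0.42 for Slc6a13 (-0.82 to -0.02, edgeR adjusted p = 0.482) and -0.35 for Slc13a4 (-0.69 to -0.02, edgeR adjusted p = 0.480). It was -0.31 for Slc22a6, -0.25 for Ranbp3l and for Slc47a1, and -0.13 for Slc22a8 and for Ptgds, with edgeR adjusted p of 0.604 to 0.836. None of the 7 passed in edgeR or DESeq2, and 2 of the 7 (Slc13a4 and Slc6a13) had an unadjusted p under 0.05, as did 1693 of all 16637 genes. Past the adjusted threshold edgeR called 18 of all genes (0.108%), 5 higher in males (0.0301%) and 13 lower (0.0781%). Control 4 and iKO 6 are both males, and without them the values of Slc22a8 and Ptgds were 0.077 and 0.081.

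The 7 genes went up and down together across libraries. Over 21 pairs the median Pearson r of log2(CPM + 1) across the 12 libraries was 0.895, from 0.65 to 0.989, and part of this is the difference between groups. After each group's mean was subtracted the median was 0.698, from 0.455 to 0.97. The pair most alike was Slc13a4 and Slc22a6 (r = 0.989, Spearman rho = 0.979; 0.97 and 0.958 with group means subtracted). Slc22a8 and Ptgds followed each other at 0.962 (rho = 0.853) and 0.902 (rho = 0.804). Slc47a1 was least like the rest: its r to Ptgds was 0.943 within the 6 controls and -0.046 within the 6 iKO libraries.

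With group means subtracted, these correlations rest partly on control 4 and iKO 6. Without controls 5 and 6, the libraries farthest from the median level of the 7 genes, the median r was 0.85, and 0.74 with group means subtracted. Without control 4 the latter was 0.531, and without control 4 and iKO 6 together it was 0.409, with the lowest pair at -0.35. The 12 points share library preparation and scaling, and the genes were chosen partly on these correlations.

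**Figure D3:**
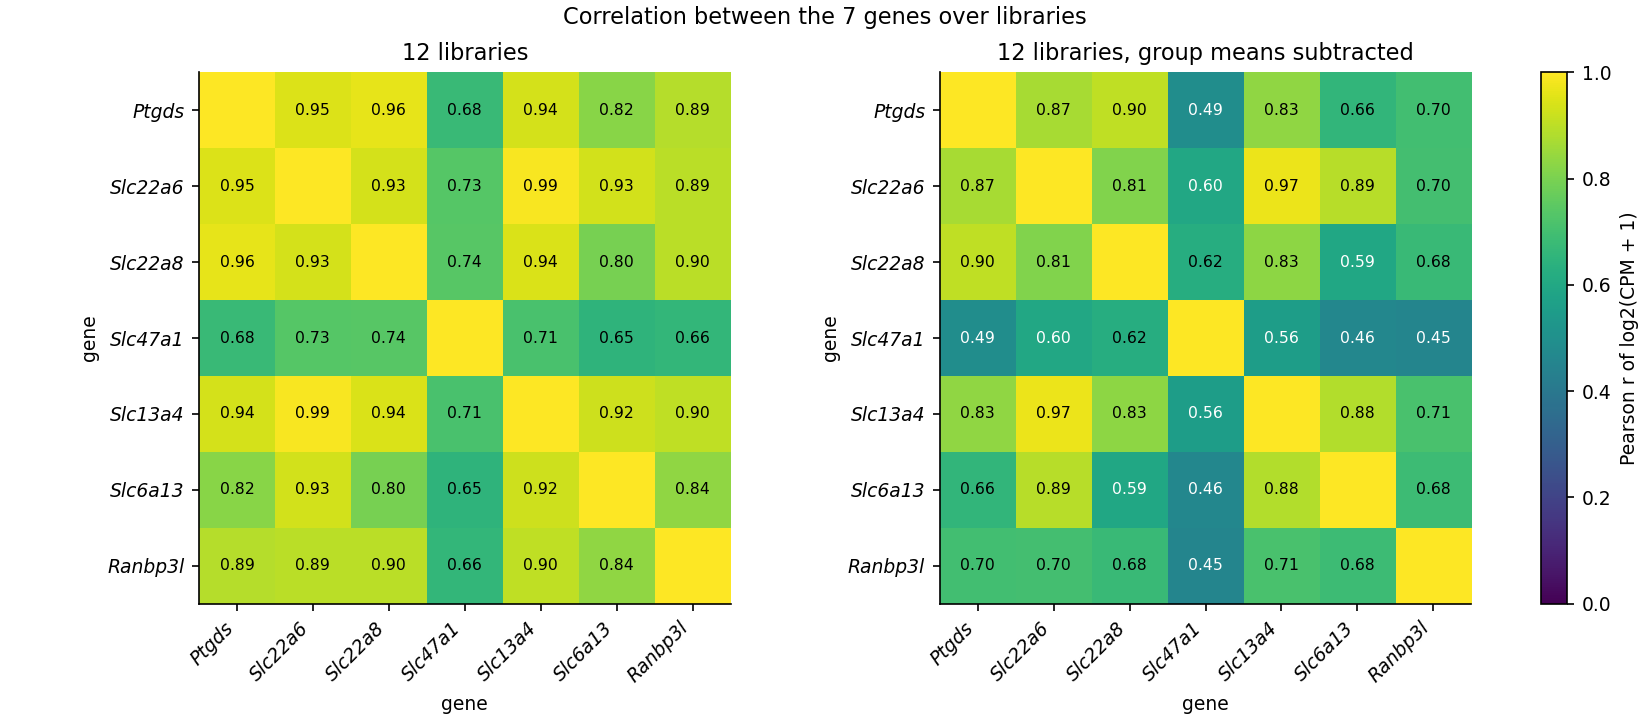
Pearson r of log2(CPM + 1) for each pair of the 7 genes (both axes) over 12 libraries, as measured (left) and with the mean of each group subtracted (right), printed in each cell and shown by colour from 0 to 1. Slc13a4 and Slc22a6 have the highest value in both panels, and the row of Slc47a1 has the lowest values.

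Of 15501 genes averaging 1 CPM or more, 7 other than these had an r of at least 0.9 to the mean level of the set with group means subtracted. The 8 most alike were Aldh1a2 (r = 0.951), Fmod (0.944), Slc13a3 (0.940), Prg4 (0.926), Slc6a20a (0.920), Vtn (0.907), Thbs2 (0.906) and Smoc1 (0.897). Aldh1a2 makes retinoic acid in the leptomeninges and Slc13a3 carries dicarboxylates. Fmod, Prg4, Vtn and Thbs2 encode secreted proteins of the matrix or of joint and tissue fluids. Spearman rho ran from 0.685 (Slc6a20a) to 0.944 (Thbs2). Without controls 5 and 6, the 2 libraries farthest from the median, r ran from 0.888 to 0.972. Control 4 and iKO 6, which lay farthest from their group means, stayed in, and r without them was not computed. Aldh1a2 measured 18.5 ± 4.95 CPM in controls against 10.8 ± 2.31 CPM in iKO (log2 difference -0.82, edgeR adjusted p = 0.0775). Slc13a3 measured 27.0 ± 7.82 and 15.5 ± 3.38 CPM (-0.86, edgeR adjusted p = 0.0695). None of the 8 passed, with edgeR adjusted p of 0.0695 to 0.185, while DESeq2 called all 8 lower (1.23% of all genes were). Without control 4, Aldh1a2, Fmod, Slc13a3, Slc6a20a and Vtn passed (edgeR adjusted p of 0.0225 to 0.038).

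Lists of other genes show what else of each cell type or pathway was present. In the comparison of iKO with control, edgeR called 34 genes lower (0.204%) and 29 higher (0.174%), with a median log2 difference of 0.00 over all genes; 998 genes (6%) were lower and 816 (4.9%) higher at an unadjusted p under 0.05. DESeq2 called 205 lower (1.23%) and 127 higher (0.763%), and edgeR without control 4 called 45 lower (0.267%) and 24 higher (0.142%). The lists and the 7 genes were chosen with earlier results of these data known.

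Among 22 markers of arachnoid and pial cells and their fibroblasts, edgeR called none, 19 had a log2 difference below 0, and the median was -0.65, or -0.43 in tamoxifen-injected animals only. At an unadjusted p under 0.05, 15 were lower and 1 higher. The smallest p-values were those of Igfbp2, a binding protein of insulin-like growth factors, and Lama1, a basement membrane laminin chain. Igfbp2 measured 23.3 ± 5.33 CPM in controls against 12 ± 2.92 CPM in iKO (log2 difference -0.96, edgeR adjusted p = 0.0511), and Lama1 6.70 ± 0.65 and 4.56 ± 0.62 CPM (-0.57, edgeR adjusted p = 0.0586). Lama1 did not overlap between groups, yet its group-centred r to the set was 0.08. DESeq2 called 7 of the 22 lower (Aldh1a2, Gjb2, Gjb6, Zic1, Igfbp2, Igf2 and Lama1) and Ogn higher. EdgeR called 5 lower without control 4 (Aldh1a2, Gjb2, Gjb6, Igfbp2 and Igf2) and 3 without control 4 and iKO 6 together (Aldh1a2, Gjb2 and Igfbp2), where 0.192% of all genes were lower. Igfbp2 alone passed with DESeq2 size factors, with a stricter filter or with no sex term, and Lama1 alone was called without control 6 or without iKO 4. The summed level of the list was 718 to 1056 CPM in controls, lowest in control 4, and 731 to 931 CPM in iKO. The r of this sum to the mean of the 7 genes, group means subtracted, was 0.851, the highest of the 16 lists. Such sums weigh abundant genes most, here Ogn (306 CPM in controls) and Cdh1 (204 CPM). For single genes of the list r ran from -0.60 (Cdh1) to 0.951 (Aldh1a2), and it was 0.52 for Ogn.

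Among 23 other transporters and efflux pumps of this barrier, edgeR called none and 20 were below 0, with a median log2 difference of -0.18. At an unadjusted p under 0.05, 11 were lower and 0 higher. Slc13a3 and Slc16a12, a monocarboxylate family transporter, had the smallest p-values. Slc16a12 measured 18.4 ± 2.38 CPM in controls against 13.6 ± 1.68 CPM in iKO (-0.46, edgeR adjusted p = 0.0823), and its group-centred r to the set was -0.09. DESeq2 called 4 lower, Slc6a20a, Slc13a3, Slc16a12 and Slc7a11. EdgeR called Slc6a20a, Slc13a3 and Slc7a11 lower without control 4, and Slc16a12 without control 2. Slc6a20a, a proline transporter, measured 17.0 ± 5.39 and 8.59 ± 2.04 CPM (-1.01, edgeR adjusted p = 0.0875). The efflux pump genes Abcb1a (-0.19), Abcg2 (-0.17) and Abcc4 (-0.12) had small differences that did not pass (edgeR adjusted p of 0.436 to 0.66).

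Within the gene families of the 7, edgeR called no close relative, and DESeq2 called Slc13a3 and Slc6a20a lower. Of 10 other Slc22 genes tested, 3 were lower at an unadjusted p under 0.05, and the median log2 difference was -0.11. Slc13a5 (1.02 ± 0.53 and 0.64 ± 0.25 CPM) and Slc47a2 (3.65 ± 0.49 and 3.16 ± 0.27 CPM) were lowly expressed. Of 13 other Slc6 genes 6 were lower at an unadjusted p under 0.05 (median -0.16). Slc6a12, the betaine transporter gene, measured 7.83 ± 3.03 and 4.75 ± 1.76 CPM (edgeR adjusted p = 0.311). Ranbp3, the relative of Ranbp3l, measured 62.2 ± 1.89 and 59.6 ± 5.82 CPM, a log2 difference of -0.05 (edgeR adjusted p = 0.812).

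Genes around Ptgds in prostaglandin metabolism were mostly at low levels. Of 14 tested, edgeR and DESeq2 called none, 11 were below 0 and 2 were lower at an unadjusted p under 0.05, with a median of -0.15. The prostaglandin carrier gene Slco2a1 measured 8.95 ± 0.77 CPM in controls against 7.35 ± 1.10 CPM in iKO (-0.30, edgeR adjusted p = 0.322), and the prostaglandin E synthase gene Ptges 13.5 ± 1.64 and 11.3 ± 1.92 CPM (-0.28, edgeR adjusted p = 0.398). Ptgdr, which encodes the receptor for prostaglandin D2, measured 26.8 ± 2.13 and 27.7 ± 2.65 CPM (0.04, edgeR adjusted p = 0.898). The cyclooxygenase genes Ptgs1 and Ptgs2, which supply the precursor, stood at 4.72 ± 2.87 and 1.41 ± 0.59 CPM in controls, and the other prostaglandin D synthase gene, Hpgds, at 4.22 ± 0.72 CPM. Ptgdr2, the second receptor gene, had at most 3 counts in a library and was not tested.

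The medians of other sheath and vessel lists were nearer to 0 than that of the arachnoid and pial markers (-0.65). The dura median was close to that of the other barrier transporters (-0.18 for both). Dura fibroblast markers (10 genes, median -0.18), perineurium markers (12 genes, -0.12) and general fibroblast and matrix genes (12 genes, -0.14) had no edgeR call. In replicates 1 to 4 only these medians were -0.34, -0.13 and -0.21. The other barrier transporters there had a median of -0.125, nearer to 0, and the arachnoid and pial markers -0.496. At an unadjusted p under 0.05 these lists held 3, 3 and 5 lower and 0, 1 and 0 higher genes, and DESeq2 called Foxp2 of the dura list and Dcn of the matrix list lower. The genes with the smallest p included Foxp2 (-0.41) for dura, Cldn1 (-0.34) and Stra6 (-0.55) for perineurium, and Dcn (-0.28) and Fbln1 (-0.85) for matrix. Of 13 markers of endoneurial and epineurial fibroblasts 1 passed: Pcolce2, which encodes an enhancer of procollagen processing, rose from 37.2 ± 2.38 to 48.4 ± 3.81 CPM (0.38, edgeR adjusted p = 0.0191). It did not pass without control 1, 3 or 5, without iKO 1 or 5, in tamoxifen-injected animals only (0.40, edgeR adjusted p = 0.0759), in replicates 1 to 4 only (0.44, edgeR adjusted p = 0.137) or with a replicate block (0.38). With 1 library left out its log2 difference stayed between 0.34 and 0.42. Endothelial (10 genes, median -0.02) and mural (8 genes, 0.02) markers had no edgeR call and 1 and 2 lower and 1 and 0 higher at an unadjusted p under 0.05. DESeq2 called Mfsd2a of the endothelial list higher (25.1 ± 2.55 and 31.7 ± 2.54 CPM, edgeR adjusted p = 0.097). The group-centred r to the 7 genes was 0.713 for the summed matrix list, 0.591 for dura, 0.581 for endothelium, 0.404 for mural cells, 0.289 for perineurium and 0.177 for endoneurium and epineurium.

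**Figure D4:**
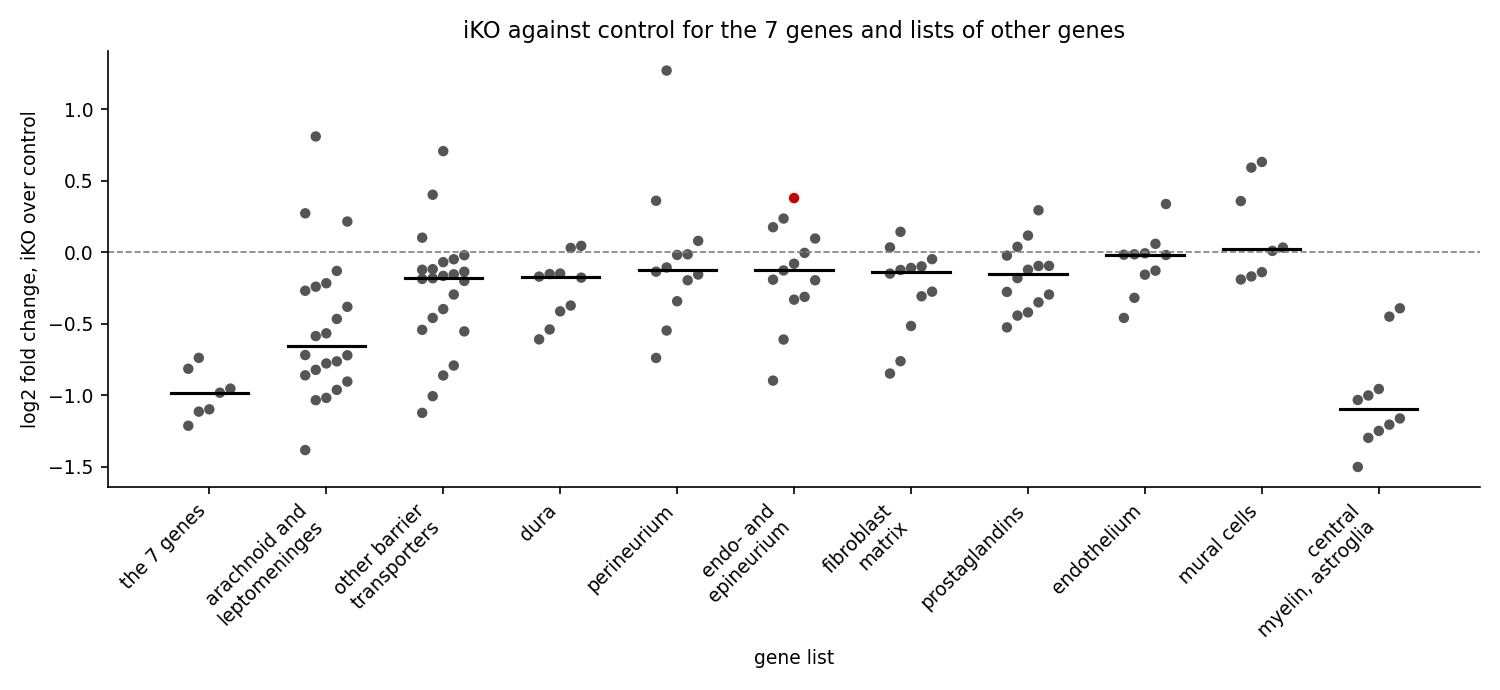
Log2 fold change of iKO over control (y axis) for the 7 genes and for the tested members of 10 lists of other genes (x axis), 1 point per gene, with the list's median as a bar; red marks the single gene past the edgeR threshold in these lists, Pcolce2, and the 7 genes carry no test. The medians are -0.98 for the 7 genes, -0.65 for arachnoid and leptomeninges and -1.10 for central myelin and astroglia.

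Markers of central nervous tissue also moved with the libraries. All 10 oligodendrocyte and astrocyte genes were below 0 (median -1.10), none passed in edgeR or DESeq2, and 2 were lower at an unadjusted p under 0.05. Their summed level spanned 137 CPM in control 4 to 2572 CPM in control 6, and 145 to 887 CPM in iKO. Its group-centred r to the 7 genes was 0.55. Within the controls the libraries ranked in the same order for this sum as for Ptgds, with control 6 highest and control 4 lowest. In iKO they did not, as Ptgds was lowest in iKO 6 (433 CPM) and the sum was lowest in iKO 1 (145 CPM). The list's median was -0.60 without control 6, -0.71 in replicates 1 to 4 only and -0.19 in tamoxifen-injected animals only, where the 7 genes were between -0.99 and -0.52. Its part in the difference of the 7 genes was not tested.

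Several of the 7 genes are also expressed by kidney tubule and choroid plexus. Of 8 kidney tubule genes 3 were tested and none passed in edgeR or DESeq2 or had an unadjusted p under 0.05; the sum of the list was 6.06 to 9.57 CPM over all libraries, and Slc34a1 and Umod had at most 2 and 1 counts in a library. Of 12 choroid plexus genes 8 were tested. Aqp1, a water channel gene that sensory neurons also express, fell from 214 ± 9.76 to 145 ± 16.1 CPM (-0.54, edgeR adjusted p = 0.00172), but did not pass in replicates 1 to 4 only (adjusted p = 0.0612). At an unadjusted p under 0.05, 5 were lower and 1 higher, and DESeq2 called 4 lower, Kl, Tmem72, Kcnj13 and Aqp1. Ttr, the most abundant transcript of choroid plexus, measured 3.77 ± 3.32 and 1.18 ± 0.82 CPM, and Folr1 stayed at or below 0.525 CPM in every library. The summed choroid plexus list had a group-centred r of -0.42 to the 7 genes. Aqp1 was the largest part of this sum, whose median was 328 CPM in controls. For single genes of the list r ran from -0.82 (Cldn2) to 0.83 (Kl).

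Satellite glia markers (9 genes) had no edgeR or DESeq2 call, 1 gene lower at an unadjusted p under 0.05, a median of -0.10 and a group-centred r of 0.576. Of 6 melanocyte genes only Tyrp1 was tested, at 6.76 ± 1.55 and 9.67 ± 1.92 CPM (edgeR adjusted p = 0.305), and Tyr had at most 1 count in a library. Anterior pituitary genes, genes of a gland that lies close to the ganglia, summed to 12.7 to 687 CPM in controls and 8.88 to 2805 CPM in iKO, with the highest value in iKO 3 and none of 5 tested genes past the threshold in edgeR or DESeq2 or at an unadjusted p under 0.05. Among sensory neuron genes, those DESeq2 called lower included Scn10a and Calca, a sodium channel gene and the gene of a neuropeptide. The summed neuron list had a group-centred r of -0.43 to the 7 genes.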

How the data were processed

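RNA of 12 trigeminal ganglion samples was sequenced from non-stranded polyadenylated RNA libraries, per the labels' protocols. The authors deposited whole-number read counts per gene for each library; the tools listed in the submitters' processing notes are featureCounts 2.0.1, STAR 2.7.8a and bcl2fastq 2.20.0.422, with build GRCm39, while the annotation release is not given in the sources used here. Identifiers were matched to symbols for 52083 of 55416 genes. Exon lengths and overlaps came from a GRCm38 annotation, so no GRCm39 coordinates are given; Slc6a13 overlaps a miRNA gene, Gm24855, with no shared exon bases, and the other 6 genes overlap none.

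Counts were tested in edgeR 4.0.16 (R 4.3.3, limma 3.58.1) with TMM scaling, filterByExpr and the quasi-likelihood test with sex as covariate, Benjamini-Hochberg adjusted over 16637 genes at 0.05. DESeq2 1.42.0 was an alternative, as were other scaling, filters, covariates and subsets. Standard deviations are between libraries. The labels do not say how libraries of a group were obtained, so p-values compare differences with the spread between these samples. In the controls this spread includes differences of genotype and injection. Libraries of 1 group differed by more than sampling noise (chi-square per gene of 7.77 to 28.8 over 30 pairs), so each counted once. On simulated data with 16480 genes, the iKO comparison recovered 89% of 2-fold and 65% of 1.5-fold changes, with 10 false calls. Recovery was 84% and 62% for the sexes, and 69% and 32% for corn oil against tamoxifen. It was 47% and 9% for the difference between replicate sets. Changes were placed in genes averaging 1 CPM or more. Each gene was drawn separately, so shifts shared by many genes of a library were not simulated.

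The 7 genes and all lists were chosen with earlier results of these data known. Named genes are Prdm12, the 7 genes, in each list those past the threshold (up to 4) or otherwise the 2 with the smallest p, and the 8 genes most correlated with the 7. Other names, such as relatives of the 7 or calls under alternatives, were chosen after their values were seen. Some genes that this rule names are not reported here.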

Additional observations from a re-analysis of the deposited data

Results flagged for a closer look

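Ptgds in iKO 6, at 433 CPM, lay apart from the other 5 iKO libraries, which measured 695 to 821 CPM. The gap to the nearest library was 0.677 of the group's whole range, which is past Dixon's 95% critical value for 6 samples. The highest and lowest libraries of both groups were examined for all 7 genes, and chance alone places about 1 in 20 groups past this value. iKO 6 was also the lowest iKO library for Slc13a4, Slc22a6, Slc22a8, Ranbp3l and Slc6a13, but not far enough from the others to pass. Without iKO 6 the log2 difference of Ptgds between iKO and control was -0.86, against -0.98 with all libraries.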

How the results depend on the processing

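The log2 differences of the 7 genes between iKO and control stayed below 0 in 147 of 147 values under alternatives. The genes were chosen partly for this difference, and the alternatives reuse the same libraries. The shared sign is therefore a description only. Counts of called genes varied. The iKO comparison, 63 calls, gave 138 with no filter on low counts, 332 with DESeq2, 28 in tamoxifen-injected animals only, 12 in replicates 1 to 4 only, and 23 to 88 with 1 library left out. The sexes, 18 calls, gave 33 with no filter, 50 with DESeq2, 10 without control 4 and iKO 6 together (chosen after seeing the data) and 11 to 15 with 1 library left out. Corn oil against tamoxifen, 0 calls, gave 1136 with no filter, 3 with DESeq2 and 0 to 120 with 1 library left out. The difference between replicate sets, 0 calls, gave 578 with no filter, 5 with DESeq2, 2 without control 4 and iKO 6 together and 0 to 15 with 1 library left out. Deviations of same-numbered libraries from their group means had r of -0.396 to 0.35, and no control correlated best with its own number. The labels do not say whether equal numbers mark a shared litter or batch, and these values do not decide it. The numbers were treated as names only. With a replicate block the iKO comparison called 15 genes and the replicate sets 0. The sign of the replicate set difference for Slc47a1 reversed with DESeq2 (0.020), under the replicate block (0.097), without control 4 and iKO 6 together (0.31) and over 1 library left out (-0.34 to 0.33). That of Slc6a13 reversed to 0.17 without both and ran from -0.91 to 0.059 with 1 left out. Corn oil minus tamoxifen for Slc6a13 was -0.047 without both and ran from -0.048 (without control 4) to 0.46. Male minus female was 0.077 for Slc22a8 and 0.081 for Ptgds without both. The group-centred median correlation was 0.409 without both and ran from 0.531 to 0.788 with 1 left out. The sex, injection and set tests of the 7 genes passed in 8 of 364 alternatives, all with no filter. Causes were not tested. Genes near 5 CPM, such as Ranbp3l in iKO, rest on 56 to 154 counts per library.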
